A study of Macaca mulatta with 51 samples.

Results

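Adipose tissue (AT) biopsied after 12 weeks of FGF21 treatment was compared with AT from the same rhesus macaques before treatment, across all expressed genes. The comparison held 19 AT libraries, 10 taken before treatment (AT Pre) and 9 after it (AT Post), of 48 libraries with counts in a series of 51 labelled samples that also covers skeletal muscle and a washout time point. No gene entered or left the comparison by its change. All 13367 genes with at least 0.5 CPM (counts scaled to a common library total) in at least 10% of the AT libraries were tested, of 16033 genes in the table. That filter ran over all 27 AT libraries, washout included.

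The animals were diet-induced obese rhesus macaques aged 11 to 22 years that had eaten a high-fat diet for 2 years or longer. There were 5 males, and the 5 females were ovariectomized. AT Pre was the untreated state of each animal, and AT Post followed daily subcutaneous injections of native human FGF21 with the dose raised in steps from 10 to 1000 ug per kg, except that 1 animal stayed at 300 ug per kg. In all, 9 of the 10 animals gave both libraries, and animal 19832 gave AT Pre alone. No group received vehicle or no injection over the same weeks, and the animals lost weight while treated, so FGF21, weight loss, time and repeated biopsy cannot be told apart. Each biopsy was a punch of subcutaneous abdominal AT, a mixture of adipocytes, progenitors, vessels, nerves and immune cells.

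FGF21 is a hormone made mainly by the liver that signals through FGF receptors, chiefly FGFR1, together with the membrane protein beta-klotho (KLB), and adipocytes are among its main targets. White adipocytes store triglyceride, which they build from fatty acids taken up from lipoproteins and, under insulin, from glucose. They release it again when catecholamines or natriuretic peptides start lipolysis, and they supply leptin and other hormones. Most cells hold their cholesterol steady by a pair of opposed programmes, a sterol-sensing one that drives synthesis and uptake, and a liver X receptor one that drives export.

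Library totals ran from 17812175 to 23940980 counts before treatment and from 17228748 to 22531878 after it, so depth did not separate the groups. The summed CPM of 8 mature adipocyte markers had its lowest, median and highest values at 17470, 20190 and 35620 CPM before treatment and 10130, 17790 and 31400 CPM after it, and 16 skeletal muscle markers summed to at most 214 CPM in any of the 19 libraries. Animals 20275 and 22130 stood apart. Over all genes tested, the SD of the change from Pre to Post was 1.11 log2 units in the first and 1.0 in the second, against 0.477 to 0.758 in the other 7. Their Pre libraries, with that of animal 26292, also lay at 39.4 to 42.6 on the second principal component, where the other 16 libraries lay between -22.0 and 21.7. Results are therefore given with and without these animals. The library identifiers fell into 3 number series whose meaning the labels do not give. Of the 9 animals, 6 had both libraries in the last series, 2 had both in the middle one and 1, animal 22130, had them in different ones. Its Pre library was in the middle series and its Post library in the last, so its change and a difference between series cannot be told apart. Results within the last series therefore also leave out animal 22130, and are not a check separate from its omission.

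Between AT Pre and AT Post, 2068 of the 13367 genes tested were differentially expressed (DE), meaning an adjusted p below 0.05 in edgeR's quasi-likelihood test with animal in the model and a log2 fold change beyond 0.26 either way. That was 15.5% of genes, with 933 (6.98%) higher after treatment and 1135 (8.49%) lower. The median log2 fold change of all genes was 0.03. Decreases were larger, with a median of -0.62 among DE genes that fell against 0.45 among those that rose, and 251 DE genes fell by more than 1 log2 unit where 108 rose by as much. Among the 101 genes that averaged above 1000 CPM, 33 fell and 9 rose. Log2 CPM was lower after treatment in all 9 animals for 5.04% of genes and higher in all 9 for 2.84%.

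The count of DE genes leaned on a few animals. It was 805 without animal 22130, 998 without animal 20275, 1162 when only the Pre library of animal 20275 was dropped, 1316 without animal 21189 and 1390 without animal 21866, and between 1513 and 2214 without any other animal. Within the 6 animals of the last series it was 415, of which 85 were higher. Of the 2053 DE genes that could be fitted there, 2053 had the same direction, but these 6 animals are part of the 9. With the series as a covariate 2025 genes were DE, 1886 of them shared. The median change of the 1135 genes that fell ran from -0.24 in animal 23004 to -1.20 in animal 20275. The plot of fold change against level shows the whole comparison.

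**Figure D1:**
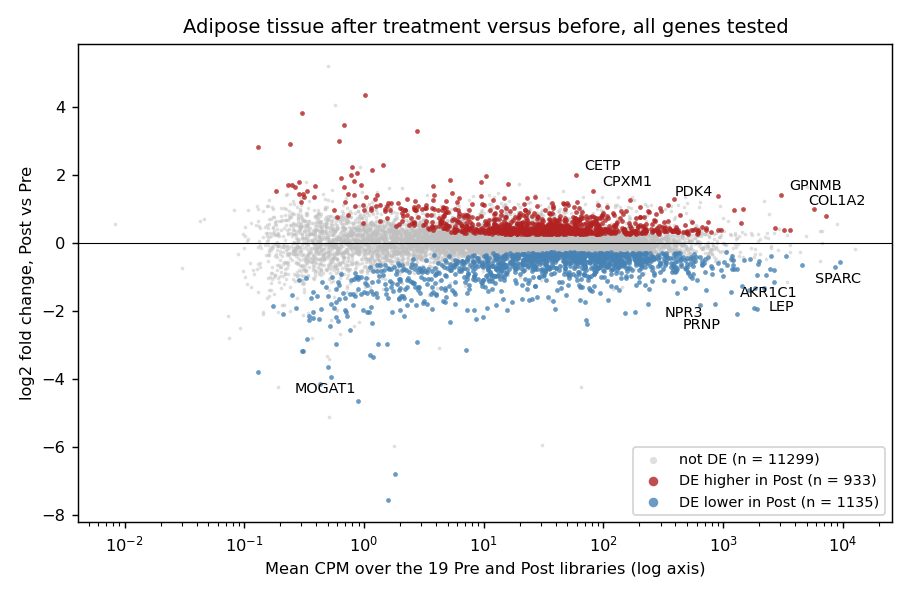
Log2 fold change of each gene, AT Post versus AT Pre, against its mean CPM over the 19 libraries on a log axis. Each point is 1 of 13367 genes, and the 933 DE genes that rose and the 1135 that fell are coloured. The named genes are described in the text.

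Genes of sterol synthesis fell while genes of cholesterol export rose. Of 24 genes tested in the cholesterol synthesis list, 12 fell and the list's median log2 fold change was -0.52, beside 0.03 for all genes and a background of 8.49%. Of 17 genes of cholesterol efflux and lipoprotein transfer, 8 rose and 2 fell, with a median of 0.40 and a background of 6.98%. The median of the synthesis list was below 0 in all 9 animals, and that of the export list was above 0 in 7 of 9. The summed CPM of the export list was higher after treatment in 5 of 9.

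IDI1, the isopentenyl diphosphate isomerase, had its lowest, median and highest values at 46.8, 97.1 and 226 CPM before treatment and 32.4, 44.9 and 117 CPM after it. It fell in all 9 animals although the groups overlapped (log2 fold change -0.89, SE 0.22, edgeR adjusted p = 0.0143). SQLE, the squalene epoxidase that makes the first oxygenated sterol precursor, had its lowest, median and highest values at 11.4, 19.2 and 75.1 CPM before treatment and 7.51, 9.11 and 52.2 CPM after it and also fell in all 9 (log2 fold change -0.81, SE 0.25, edgeR adjusted p = 0.0358).

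On the export side, NR1H3, which encodes liver X receptor alpha, had its lowest, median and highest values at 20.2, 24.9 and 41.4 CPM before treatment and 19.9, 66.4 and 107 CPM after it. It was higher in 8 of 9 animals (log2 fold change 1.19, SE 0.20, edgeR adjusted p = 0.00178) and level in the ninth. Its target ABCG1, a sterol exporter, went from 99.6 ± 35.2 CPM (SD, n = 10) to 243 ± 117 CPM (SD, n = 9) and rose in all 9 animals (log2 fold change 1.27, SE 0.19, edgeR adjusted p = 0.00103), although the groups overlapped. ABCA1, which loads cholesterol onto apolipoprotein A-I, rose in 8 of 9 (log2 fold change 0.93, SE 0.21, edgeR adjusted p = 0.0085). CETP, which exchanges cholesteryl ester and triglyceride between lipoproteins, had a log2 fold change of 2.0, and NPC2, the lysosomal cholesterol carrier, one of 0.66.

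The counts of both lists shrank with fewer animals. Genes of the synthesis list that fell numbered 7 without animal 22130, 8 without animal 20275 and 4 among the 6 animals of the last series, where the median stayed at -0.44. Genes of the export list that rose numbered 4 without animal 22130, 5 without animal 20275 and 4 among the 6 animals of the last series. IDI1, ABCG1, NR1H3, ABCA1 and CETP were DE whichever animal was left out. SQLE and NPC2 each lost that call when at least 1 of the animals 20261, 20275, 21189, 21866, 22130 or 26292 was left out, with adjusted p up to 0.118. The summed CPM of 18 macrophage markers, cells that also express ABCG1, NR1H3 and ABCA1, was higher after treatment in 6 of 9 animals, and its part in the rise of the export genes was not tested.

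**Figure D2:**
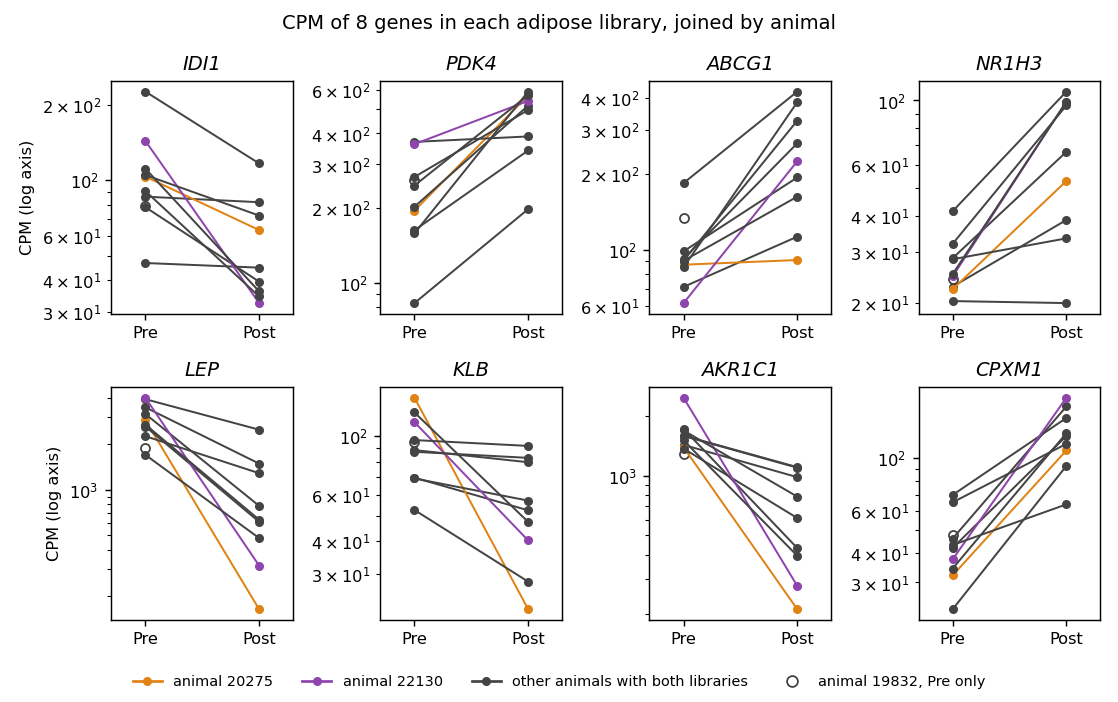
CPM of 8 genes in each AT library on log axes, with Pre and Post joined for each of the 9 animals and the open circle for the animal with a Pre library alone. IDI1, LEP, KLB and AKR1C1 go down in every animal, PDK4, ABCG1 and CPXM1 go up in every animal, and NR1H3 goes up in 8. Animals 20275 and 22130 are coloured.

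Genes that build and coat the triglyceride store fell. In the list for de novo fatty acid synthesis 8 of 15 genes fell, in triglyceride assembly 5 of 18, in lipolysis and lipid droplets 4 of 11, and in the pentose phosphate and NADPH list 4 of 11 fell and 1 rose, beside 8.49% lower and 6.98% higher among all genes. Their median log2 fold changes were -0.81, -0.22, -0.30 and -0.21. The lipolysis and lipid droplet list named 19 genes, of which 12 were among the 16033 with counts, and the mature adipocyte list named 13, of which 8 were. As these are bulk samples, fewer cells of a type and less RNA per cell cannot be told apart. Of the 8 mature adipocyte markers LEP, TUSC5 and PLIN1 fell, and the list's median change was -2.01 log2 units in animal 20275, -1.46 in animal 22130 and between -0.25 and 0.02 in the other 7 animals. Its part in these decreases was not tested.

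GPAM, which starts glycerolipid synthesis, went from 3016 ± 931 CPM (SD, n = 10) to 1245 ± 672 CPM (SD, n = 9) (log2 fold change -1.32, SE 0.30, edgeR adjusted p = 0.00973), and DGAT2, which adds the last acyl chain, from 3488 ± 903 CPM (SD, n = 10) to 1736 ± 990.5 CPM (SD, n = 9) (log2 fold change -1.13, SE 0.27, edgeR adjusted p = 0.0135). Both fell in all 9 animals, and in both the groups overlapped. LPIN1, the phosphatidate phosphatase, fell by 1.38 on the log2 scale and MOGAT1, a monoacylglycerol acyltransferase, from a mean of 0.953 CPM to 0.0635 CPM.

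THRSP, a lipogenic nuclear protein, had its lowest, median and highest values at 1589, 2377 and 4337 CPM before treatment and 117, 612 and 2607 CPM after it. It fell in all 9 animals (log2 fold change -1.91, SE 0.47, edgeR adjusted p = 0.015). The enzymes FASN (-1.27), ACACA (-1.22) and ME1 (-1.34), given as log2 fold changes, make fatty acids and the NADPH for them. FASN was lower in 7 of 9 animals, and its adjusted p of 0.048 lay just under the threshold. TKT and TALDO1, the transketolase and transaldolase of the pentose phosphate pathway, fell by 0.97 and 0.42, while RPIA, the ribose isomerase beside them, rose in all 9 animals (log2 fold change 0.53, SE 0.12, edgeR adjusted p = 0.011).

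G0S2, an inhibitor of the lipase ATGL, had its lowest, median and highest values at 492, 569 and 928 CPM before treatment and 159, 354 and 490.3 CPM after it, and every Post library lay below every Pre library (log2 fold change -0.86, SE 0.21, edgeR adjusted p = 0.0139). PLIN1, the coat protein of the adipocyte droplet, went from 2348 ± 491 CPM (SD, n = 10) to 1539.6 ± 426 CPM (SD, n = 9), and FITM2 and PNPLA3, which serve droplet budding and remodelling, fell by 0.93 and 1.05 on the log2 scale. LPL, the endothelial-bound lipase that frees fatty acids from lipoproteins, fell in 8 of 9 animals (log2 fold change -0.71, SE 0.22, edgeR adjusted p = 0.0375). MOGAT1, LPIN1, GPAM, DGAT2, THRSP, ME1, G0S2, FITM2, TKT and RPIA were DE whichever animal was left out, and FASN, ACACA, PNPLA3, PLIN1, LPL and TALDO1 each lost that call when at least 1 of the animals 20261, 20275, 20456, 21189, 21866, 22130, 24849 or 26292 was left out, with adjusted p up to 0.116. Fatty acid synthesis genes that fell numbered 4 without animal 22130, 4 without animal 20275 and 3 among the 6 animals of the last series. In the same order, those that fell numbered 4, 4 and 2 in triglyceride assembly, 2, 2 and 2 in lipolysis and lipid droplets and 2, 4 and 1 in the NADPH list.

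Genes of glycogen metabolism fell. Of 15 tested, 8 fell, beside 8.49% of all genes, and the median log2 fold change was -0.47, with a list median below 0 in all 9 animals. GYS1, the muscle-type glycogen synthase that adipose tissue also uses, had its lowest, median and highest values at 112, 157 and 240.5 CPM before treatment and 47.1, 83.1 and 144 CPM after it. It fell in all 9 animals although the groups overlapped (log2 fold change -0.88, SE 0.22, edgeR adjusted p = 0.0157). STBD1, which tethers glycogen to membranes, fell in all 9 (log2 fold change -0.72, SE 0.14, edgeR adjusted p = 0.00498), and PYGM, a glycogen phosphorylase, fell by 0.83 on the log2 scale. The glycogen genes that fell numbered 4 without animal 22130, 4 without animal 20275 and 3 among the 6 animals of the last series.

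Genes that direct the use of glucose and fatty acids moved both ways. HK2, the insulin-responsive hexokinase, went from 78.0 ± 22.7 CPM (SD, n = 10) to 44.7 ± 19.1 CPM (SD, n = 9) and fell in all 9 animals (log2 fold change -0.90, SE 0.13, edgeR adjusted p = 0.000859). PDK4, which shuts pyruvate out of the mitochondrial acetyl-CoA pool, had its lowest, median and highest values at 82.7, 225 and 370 CPM before treatment and 198, 519 and 590.4 CPM after it and rose in all 9 (log2 fold change 1.12, SE 0.19, edgeR adjusted p = 0.00235). CPT1A, the liver-type gate of fatty acid entry into mitochondria, rose in all 9 (log2 fold change 0.50, SE 0.12, edgeR adjusted p = 0.0148).

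In the fatty acid oxidation list CPT1A was the 1 of 19 genes that rose, and 5 fell, beside 6.98% higher and 8.49% lower among all genes. Those that fell numbered 0 without animal 22130, 1 without animal 20275 and 1 among the 6 animals of the last series. Among the 5 was ACADS, which oxidises short-chain fatty acids in mitochondria and fell in all 9 animals by 0.55 on the log2 scale. EHHADH, of beta-oxidation in peroxisomes, also fell in all 9, by 0.77. Of the genes of glucose and fatty acid use named above, GYS1, STBD1, PDK4 and HK2 were DE whichever animal was left out. PYGM, CPT1A, ACADS and EHHADH each lost that call when at least 1 of the animals 20275, 21189, 21866, 22130, 24849 or 26292 was left out, with adjusted p up to 0.104.

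Part of the hormone receptors and signalling genes of the adipocyte fell. Of 24 lipolysis receptors tested 6 fell and 0 rose, of 20 insulin signalling genes 6 fell and 0 rose, and of 24 adipokines 4 fell and 1 rose, beside 8.49% lower and 6.98% higher among all genes. Lipolysis receptors that fell numbered 3 without animal 22130, 4 without animal 20275 and 3 among the 6 animals of the last series. In the same order, those that fell numbered 2, 2 and 0 in insulin signalling and 2, 3 and 1 among adipokines. The median log2 fold changes were -0.36 for the receptors and -0.27 for insulin signalling. The adipokine median was -0.01 and turned positive under 6 of the other settings.

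Receptors that restrain lipolysis and the clearance receptor of natriuretic peptides were among those that fell. NPR3, the clearance receptor, had its lowest, median and highest values at 721, 971 and 2429.8 CPM before treatment and 143, 257 and 956 CPM after it and fell in all 9 animals (log2 fold change -1.79, SE 0.33, edgeR adjusted p = 0.0031). FFAR4, a receptor for long-chain fatty acids, went from 67.9 ± 19.3 CPM (SD, n = 10) to 26.5 ± 12.7 CPM (SD, n = 9) and fell in all 9 (log2 fold change -1.53, SE 0.23, edgeR adjusted p = 0.0011). ADRA2A, the alpha-2A adrenoceptor, was lower in 8 of 9 (log2 fold change -1.30, SE 0.18, edgeR adjusted p = 0.000591), and PTGER3, a prostaglandin E2 receptor, fell by 0.88 on the log2 scale. In all of these the groups overlapped. OXTR, the oxytocin receptor, named after its values were seen, fell from 351 ± 227 CPM (SD, n = 10) to 103 ± 67.3 CPM (SD, n = 9) in all 9 animals (log2 fold change -1.78, SE 0.26, edgeR adjusted p = 0.000859).

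LEP, which encodes leptin, had its lowest, median and highest values at 1691, 2763 and 4011 CPM before treatment and 164, 635 and 2475 CPM after it, with the Post library of 8 animals below every Pre library and that of animal 20456 within the Pre range (log2 fold change -1.93, SE 0.34, edgeR adjusted p = 0.00263). Its receptor LEPR, also named after its values were seen, moved the other way, from 111 ± 45.9 CPM (SD, n = 10) to 187 ± 89.6 CPM (SD, n = 9), and was higher in 8 of 9 animals (log2 fold change 0.87, SE 0.23, edgeR adjusted p = 0.0191). NRG4 and RBP4, both secreted by adipocytes, fell by 1.53 and 0.75 on the log2 scale, and C1QTNF6 rose in all 9 animals (log2 fold change 0.84).

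In the insulin list, TBC1D4, the AKT substrate that holds glucose transporters inside the cell, fell in all 9 animals (log2 fold change -0.60, SE 0.15, edgeR adjusted p = 0.0145). GRB14, an inhibitor of the insulin receptor, fell by 0.93 and the PI3-kinase subunit PIK3R1 by 0.57 on the log2 scale. GRB14, TBC1D4, NPR3, FFAR4, ADRA2A, LEP, LEPR, NRG4 and OXTR were DE whichever animal was left out. PIK3R1, PTGER3, RBP4 and C1QTNF6 each lost that call when at least 1 of the animals 20261, 20275, 21189, 21866, 22130, 24849 or 26292 was left out, with adjusted p up to 0.141.

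Of the receptors that FGF21 could use, FGFR2 fell, and KLB, FGFR1, FGFR3 and FGFR4 did not pass the test. KLB had its lowest, median and highest values at 52.6, 92.1 and 140.1 CPM before treatment and 22.1, 52.4 and 92.0 CPM after it, and was lower in all 9 animals with overlapping groups. It missed the threshold (log2 fold change -0.75, SE 0.26, edgeR adjusted p = 0.0536), with adjusted p between 0.0158 in DESeq2 and 0.138 without animal 22130 over the other settings. FGFR1 went from 241 ± 30.4 CPM (SD, n = 10) to 257 ± 40.1 CPM (SD, n = 9) (log2 fold change 0.11, SE 0.09, edgeR adjusted p = 0.437). FGFR2 fell in all 9 animals, from 36.7 ± 7.32 CPM (SD, n = 10) to 16.4 ± 9.88 CPM (SD, n = 9) (log2 fold change -1.26, SE 0.25, edgeR adjusted p = 0.00526), and was DE whichever animal was left out.

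FGFR3, at 1.81 CPM before and 1.85 CPM after, and FGFR4, at 0.374 and 0.252 CPM, did not pass, with log2 fold changes of -0.02 and -0.74. The messenger of FGF21 itself was low, at 0.750 CPM before and 0.598 CPM after on average, with a log2 fold change of -0.92 and an adjusted p of 0.224. Without animal 24849, whose Post library held the highest value, that was -1.83 with an adjusted p of 0.00622. Of 18 genes in the list of FGF receptors and ligands, FGFR2 was the 1 that passed, beside 15.5% of all genes.

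Feedback genes of the ERK pathway, which lies below these receptors, rose in 3 of 15 and fell in 1, beside 6.98% higher and 8.49% lower among all genes. DUSP6, an ERK phosphatase, went from 97.3 ± 22.1 CPM (SD, n = 10) to 127 ± 33.4 CPM (SD, n = 9) and was higher in 8 of 9 animals (log2 fold change 0.37, SE 0.12, edgeR adjusted p = 0.0433). DUSP5 and the transcription factor ETV5 had log2 fold changes of 0.79 and 0.46, and CCND1, the D1 cyclin, one of -0.40. Each of these 4 calls was lost when at least 1 of the animals 20261, 20275, 20456, 21189, 21866, 22130, 23004, 24849 or 26292 was left out, with adjusted p up to 0.124, and none of the 4 remained among the 6 animals of the last series.

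Part of the genes of amino acid stress and of antioxidant defence fell. The integrated stress response list had 7 of 19 lower with a median log2 fold change of -0.36, and the NRF2 target list 5 of 13 lower with a median of -0.09, with the other 8 not DE. Of 21 genes of endoplasmic reticulum (ER) folding 4 fell, and of 29 autophagy genes 6 fell, beside 8.49% of all genes. Stress response genes that fell numbered 6 without animal 22130, 7 without animal 20275 and 3 among the 6 animals of the last series. In the same order, those that fell numbered 1, 3 and 3 among NRF2 targets, 2, 2 and 0 in ER folding and 3, 3 and 1 in autophagy.

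ATF5, a transcription factor translated under stress, had its lowest, median and highest values at 85.7, 143 and 266 CPM before treatment and 44.8, 62.0 and 98.5 CPM after it and fell in all 9 animals (log2 fold change -1.26, SE 0.20, edgeR adjusted p = 0.00127). ASNS, the asparagine synthetase, went from 39.7 ± 8.08 CPM (SD, n = 10) to 24.2 ± 10.1 CPM (SD, n = 9), and PSAT1 of serine synthesis fell by 0.87 on the log2 scale. SLC7A11, the cystine importer that both lists hold, fell in all 9 (log2 fold change -1.54, SE 0.23, edgeR adjusted p = 0.000859). A separate list of 26 amino acid transporters had 3 higher and 4 lower, beside 6.98% and 8.49% of all genes, and a median log2 fold change of 0.16. Its counts became 2 and 4 without animal 22130, 1 and 4 without animal 20275 and 1 and 3 within the last series. In that list SLC38A3, a glutamine transporter, fell by 3.13, while SLC7A8, a transporter of neutral amino acids, rose in 8 of 9 animals (log2 fold change 1.14, SE 0.27, edgeR adjusted p = 0.0125).

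Of the NRF2 targets, the quinone reductase NQO1 fell by 1.03, the microsomal glutathione transferase MGST1 by 0.83 and SRXN1, which repairs peroxiredoxins, by 0.70 on the log2 scale. The ER chaperones P4HB (-0.49) and HSPA5 (-0.40), the small heat shock protein CRYAB (-1.37), the lysosome regulator TFE3 (-0.56) and the autophagy protease ATG4A (-0.50) also fell, given as log2 fold changes.

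In the hypoxia list 4 of 23 genes rose and 6 fell, beside 6.98% higher and 8.49% lower among all genes. The hypoxia counts became 2 and 4 without animal 22130, 2 and 5 without animal 20275 and 1 and 2 within the last series. EGLN3, an oxygen-sensing hydroxylase, fell in all 9 animals (log2 fold change -0.90, SE 0.13, edgeR adjusted p = 0.000955), as did HK2 above. ADM, the vasodilator adrenomedullin, rose in 8 of 9 (log2 fold change 0.75, SE 0.20, edgeR adjusted p = 0.0193), and the histone demethylase KDM3A had a log2 fold change of 0.61. Among the stress, hypoxia and amino acid transporter genes named, SLC7A11, ATF5, ASNS, P4HB, TFE3, ATG4A, EGLN3, ADM, SLC38A3 and SLC7A8 were DE whichever animal was left out. PSAT1, NQO1, MGST1, SRXN1, HSPA5, CRYAB and KDM3A each lost that call when at least 1 of the animals 20261, 20275, 20456, 21189, 21866, 22130, 23004 or 26292 was left out, with adjusted p up to 0.0913.

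Among extracellular matrix genes, the named chains of the basement membrane, the sheet that wraps each adipocyte and vessel, were DE mostly downwards, and the 3 collagens that rose were fibrillar. No set of all basement membrane genes was counted. Of 26 collagens 3 rose and 4 fell, and of 34 matrix glycoproteins and proteoglycans 4 rose and 3 fell, beside 6.98% and 8.49% of all genes. The medians, -0.08 and 0.07, changed sign under some settings, and this division was noticed after the values were seen. The collagen counts became 0 and 1 without animal 22130, 0 and 2 without animal 20275 and 0 and 0 within the last series, and those of the glycoproteins and proteoglycans 3 and 2 without animal 22130, 3 and 2 without animal 20275 and 1 and 1 within the last series.

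The fibrillar collagens COL1A1 and COL1A2 went from 4011 ± 1833 CPM (SD, n = 10) to 7660 ± 3099 CPM (SD, n = 9) and from 5379 ± 1933 CPM (SD, n = 10) to 9434 ± 3623 CPM (SD, n = 9), with log2 fold changes of 1.02, SE 0.30 and 0.81, SE 0.26. Animals 22130, 26292 and 20275 had the 3 largest increases in both, and neither was DE without any one of these 3. COL1A2 was also not DE without animal 20261 or without animal 21866. COL11A1, a minor fibrillar chain, was higher in 6 of 9 animals (1.87). Of the collagens that fell, COL15A1, of basement membrane zones, did so in all 9 animals (log2 fold change -0.67, SE 0.12, edgeR adjusted p = 0.0025), and COL4A1, COL4A2 and COL4A5, chains of type IV collagen named after their values were seen, had log2 fold changes of -0.37, -0.47 and -0.65.

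LAMA4, a laminin chain of adipocyte and vessel basement membranes, went from 1446 ± 412 CPM (SD, n = 10) to 945 ± 171 CPM (SD, n = 9) and fell in all 9 animals (log2 fold change -0.63, SE 0.13, edgeR adjusted p = 0.00593). NID2, a nidogen that links laminin to type IV collagen, fell in all 9 (log2 fold change -1.02, SE 0.20, edgeR adjusted p = 0.0052), but its paralog NID1 rose in all 9 (log2 fold change 0.38, SE 0.12, edgeR adjusted p = 0.0398). LAMB3, another laminin chain, named after its values were seen, had its lowest, median and highest values at 83.9, 101 and 179 CPM before treatment and 18.8, 52.2 and 81.1 CPM after it. Every Post library of LAMB3 lay below every Pre library. SPARC, an abundant collagen-binding glycoprotein, went from 11217 ± 2373 CPM (SD, n = 10) to 7676 ± 1945 CPM (SD, n = 9) and fell in all 9 (log2 fold change -0.54, SE 0.17, edgeR adjusted p = 0.036). OGN and MFAP2, of collagen fibrils and microfibrils, had log2 fold changes of 0.86 and 0.82.

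Of 27 matrix proteases and inhibitors 3 rose and 4 fell, beside 6.98% and 8.49% of all genes. The counts became 1 and 1 without animal 22130, 1 and 2 without animal 20275 and 1 and 2 within the last series. CPXM1 and LOXL2 belong to another list, of 20 collagen processing genes, where 1 rose and 4 fell. Its median log2 fold change of 0.006 changed sign under 8 of the other settings. Its counts became 1 and 2 without animal 22130, 1 and 1 without animal 20275 and 1 and 2 within the last series. CPXM1, a secreted carboxypeptidase-like protein, had its lowest, median and highest values at 23.2, 42.5 and 70.1 CPM before treatment and 64.0, 124 and 179.8 CPM after it and rose in all 9 animals (log2 fold change 1.53, SE 0.16, edgeR adjusted p = 5.43e-05). MMP11, stromelysin-3, rose in all 9 (log2 fold change 1.34, SE 0.20, edgeR adjusted p = 0.00103), while MMP15, a membrane-type protease, fell in all 9 (log2 fold change -1.33, SE 0.22, edgeR adjusted p = 0.00224). LOXL2, a lysyl oxidase that crosslinks collagen, fell in all 9 (log2 fold change -0.96, SE 0.15, edgeR adjusted p = 0.00127), and PLOD2, which hydroxylates the lysines used for crosslinks, fell by 0.65 on the log2 scale. The aggrecanase ADAMTS5 fell by 0.91, and the protease inhibitor TIMP3, at 5535 to 3448 CPM on average, by 0.65.

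The plot of matrix genes by animal shows that the increases of COL1A1, COL1A2 and COL11A1 were largest in animals 20275, 22130 and 26292, while the decreases of LOXL2 and COL4A5 were largest in animal 21189. COL15A1, LOXL2, CPXM1, NID2, LAMA4, LAMB3, OGN, MFAP2, MMP11 and MMP15 were DE whichever animal was left out. COL4A1, COL4A2, COL4A5, COL11A1, COL1A1, COL1A2, PLOD2, NID1, SPARC, ADAMTS5 and TIMP3 each lost that call when at least 1 of the animals 20261, 20275, 20456, 21189, 21866, 22130, 23004 or 26292 was left out, with adjusted p up to 0.138.

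**Figure D3:**
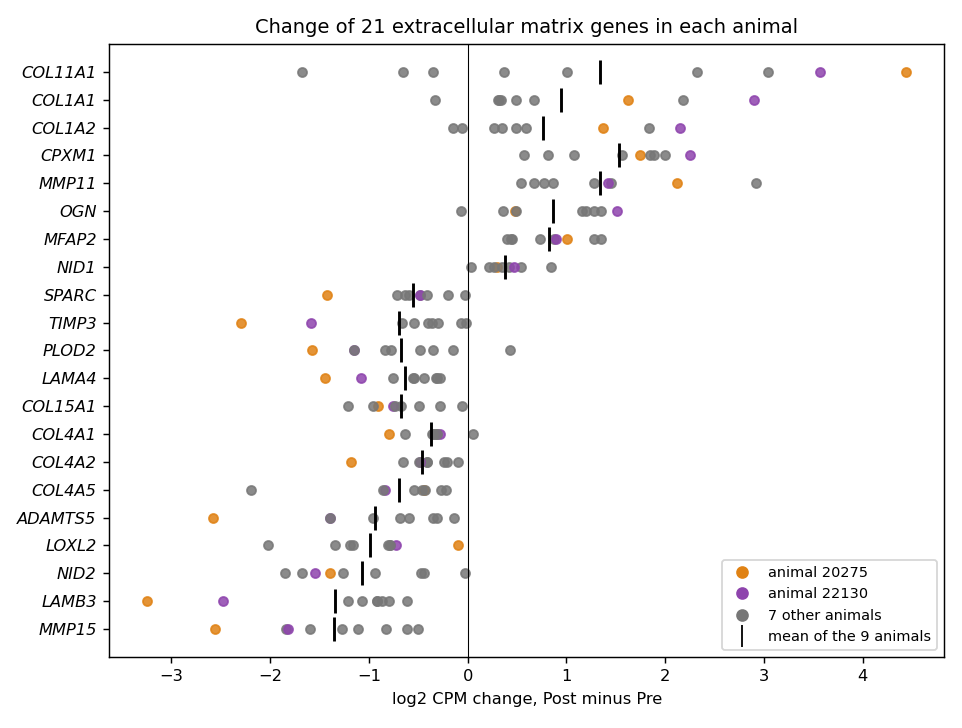
Change in log2 CPM, Post minus Pre, of 21 extracellular matrix genes, 1 point for each of the 9 animals and a bar at their mean. CPXM1, MMP11, MFAP2 and NID1 lie above 0 in all 9 animals, and LAMA4, NID2, LAMB3, MMP15, LOXL2 and COL15A1 below 0 in all 9. COL11A1 spreads across both sides of 0.

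Among secreted regulators of growth, the Wnt list had 4 of 39 genes higher and 6 lower, and the TGF-beta superfamily 1 of 40 higher and 4 lower. These counts stand beside 6.98% higher and 8.49% lower among all genes, and no result about either list is drawn from them. The Wnt counts became 2 and 2 without animal 22130, 1 and 3 without animal 20275 and 0 and 2 within the last series, and those of the TGF-beta superfamily 1 and 2 without animal 22130, 1 and 2 without animal 20275 and 1 and 3 within the last series. FRZB, a secreted Wnt antagonist, went from 898 ± 461 CPM (SD, n = 10) to 344 ± 310.3 CPM (SD, n = 9) and was lower in 8 of 9 animals (log2 fold change -1.82, SE 0.48, edgeR adjusted p = 0.0203). DKK1, another antagonist, fell in all 9 (log2 fold change -1.26, SE 0.24, edgeR adjusted p = 0.00416). RSPO3, a Wnt agonist, fell by 1.17 on the log2 scale, and its receptor LGR5 fell by 1.58.

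INHBA, the subunit of activin A, had its lowest, median and highest values at 7.31, 15.7 and 24.5 CPM before treatment and 3.55, 4.87 and 13.8 CPM after it and fell in all 9 animals (log2 fold change -1.40, SE 0.21, edgeR adjusted p = 0.000955). GDF10, a further member of that family, fell by 0.75 on the log2 scale. In the list of the insulin-like growth factor (IGF) axis 2 of 15 genes rose and 1 fell, beside 6.98% higher and 8.49% lower among all genes. The IGF counts became 1 and 1 without animal 22130, 1 and 1 without animal 20275 and 1 and 0 within the last series. IGFBP3 went from 818 ± 214 CPM (SD, n = 10) to 1687 ± 573 CPM (SD, n = 9) (log2 fold change 0.98, SE 0.17, edgeR adjusted p = 0.00259) and IGFBP5 from 1151 ± 332 CPM (SD, n = 10) to 1702 ± 495 CPM (SD, n = 9) (log2 fold change 0.60, SE 0.19, edgeR adjusted p = 0.0407). The summed CPM of the list was higher in all 9 animals. STC2, a stanniocalcin that blocks the cleavage of IGF-binding proteins, fell in all 9 (log2 fold change -1.08, SE 0.21, edgeR adjusted p = 0.00418). DKK1, INHBA, IGFBP3 and STC2 were DE whichever animal was left out. FRZB, RSPO3, LGR5, GDF10 and IGFBP5 each lost that call when at least 1 of the animals 20261, 20275, 21189, 21866, 22130, 23004, 24849 or 26292 was left out, with adjusted p up to 0.16.

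Most genes of steroid, retinoid and prostaglandin metabolism were not DE. Of 20 in the steroid list 1 rose and 3 fell, of 24 in the retinoid list 2 rose and 5 fell, and of 26 in the eicosanoid list, which holds the prostaglandin genes, 1 rose and 5 fell, beside 6.98% and 8.49% of all genes. The median log2 fold changes were -0.24, 0.02 and 0.10, and the retinoid median changed sign under some of the other settings. The steroid counts became 0 and 3 without animal 22130, 1 and 3 without animal 20275 and 0 and 2 within the last series, the retinoid counts 1 and 3 without animal 22130, 1 and 4 without animal 20275 and 1 and 2 within the last series and the eicosanoid counts 0 and 1 without animal 22130, 0 and 1 without animal 20275 and 3 and 0 within the last series. AKR1C1, which inactivates progesterone and other steroids and has close paralogs that reads could be shared with, had its lowest, median and highest values at 1292, 1547 and 2474 CPM before treatment and 212, 612 and 1105 CPM after it. Every Post library lay below every Pre library (log2 fold change -1.42, SE 0.28, edgeR adjusted p = 0.00479). SULT1A1, a sulfotransferase, and STS, the steroid sulfatase that undoes such conjugates, fell in all 9 animals, by 0.87 and 0.64 on the log2 scale, and HSD17B11 rose in all 9 (log2 fold change 0.33).

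RDH5, a retinol dehydrogenase, fell from 76.4 ± 14.0 CPM (SD, n = 10) to 40.6 ± 15.4 CPM (SD, n = 9) in all 9 animals (log2 fold change -0.97, SE 0.18, edgeR adjusted p = 0.00414). RETSAT, the retinol saturase, went from 1274 ± 271 CPM (SD, n = 10) to 703 ± 399 CPM (SD, n = 9), and CRABP1, a retinoic acid carrier, fell by 1.26 on the log2 scale. HPGDS and PTGDS, the prostaglandin D2 synthases, fell by 1.05 and 0.81, while PTGES, a prostaglandin E synthase, rose in all 9 (log2 fold change 0.51). AKR1C1, SULT1A1, STS, RDH5, CRABP1 and HPGDS were DE whichever animal was left out. HSD17B11, RETSAT, PTGDS and PTGES each lost that call when at least 1 of the animals 20261, 20275, 21189, 21866, 22130 or 26292 was left out, with adjusted p up to 0.0868.

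Part of the macrophage, complement and lysosome genes rose, and most of these calls were lost without animal 22130 or without animal 20275. Of 18 macrophage markers 5 rose and 15 had an unadjusted p below 0.05, with a median log2 fold change of 0.90. Of 23 complement genes 7 rose, with a median of 0.60, and of 33 lysosomal genes 7 rose and 2 fell, with a median of 0.35, beside 6.98% higher and 8.49% lower among all genes. The summed CPM of the macrophage list had its lowest, median and highest values at 925, 2032 and 3582 CPM before treatment and 1481, 3895 and 9038 CPM after it. The median macrophage change was 2.55 in animal 20275 and 1.85 in animal 22130, and lay between -0.38 and -0.30 in 3 others. The complement change was highest in animals 22130 (0.97), 21189 (0.87) and 20275 (0.83), and the lysosomal change in animals 20275 (1.05), 22130 (0.68) and 21189 (0.54). The macrophage markers that rose numbered 0 without animal 22130, 0 without animal 20275 and 1 among the 6 animals of the last series, although the list's median stayed at 0.61 or above whichever animal was left out. In the same order, complement genes that rose numbered 0, 2 and 0 and lysosomal genes that rose 0, 1 and 0. With only the AT Pre and AT Post libraries in the fit, 0 macrophage, 1 complement and 1 lysosomal genes rose.

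**Figure D4:**
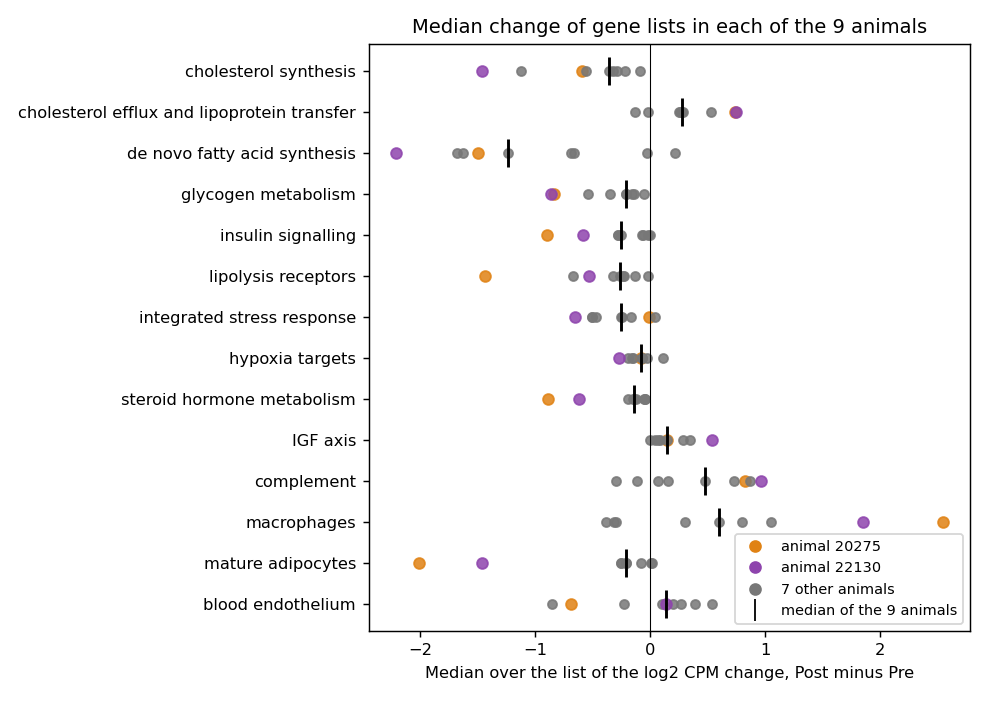
Median over each gene list of the log2 CPM change, Post minus Pre, with 1 point for each of the 9 animals and a bar at the median animal. Cholesterol synthesis, glycogen and lipolysis receptors lie below 0 in all 9 animals. Macrophages run from -0.38 to 2.55, with animals 20275 and 22130 highest, and these 2 are lowest for mature adipocytes.

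The complement genes that rose included the C1q chains, with log2 fold changes of 0.73 for C1QA, 0.96 for C1QB and 0.90 for C1QC, and properdin, CFP (0.81). VSIG4, a complement receptor of resident macrophages, was at 0.94 and AIF1, a general macrophage gene, at 1.0. GPNMB, a membrane protein of lipid-laden macrophages, went from 1692 ± 742 CPM (SD, n = 10) to 4508 ± 2332 CPM (SD, n = 9) and was higher in 8 of 9 animals (log2 fold change 1.41, SE 0.35, edgeR adjusted p = 0.0157). ACP5, tartrate-resistant acid phosphatase, was higher in 7 of 9 (log2 fold change 1.11, SE 0.27, edgeR adjusted p = 0.0147). Lysozyme, LYZ, had a log2 fold change of 1.40, and the cathepsins CTSK and CTSS changes of 1.01 and 1.05. Of 19 markers of lipid-associated macrophages 2 rose and 1 fell, with a median of 0.87. Of 11 markers of tissue-resident macrophages 1 rose, with a median of 0.19, beside 6.98% higher and 8.49% lower among all genes. Those that rose numbered 1 and 0 without animal 22130. The summed CPM of the lipid-associated list was higher after treatment in 5 of 9 animals.

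SLC40A1, which encodes ferroportin, the iron exporter, rose in all 9 animals, from 163 ± 39.9 CPM (SD, n = 10) to 277 ± 48.5 CPM (SD, n = 9) (log2 fold change 0.79, SE 0.11, edgeR adjusted p = 0.000591). HEPH, the ferroxidase that works beside it, fell in all 9 (log2 fold change -0.83, SE 0.18, edgeR adjusted p = 0.00796). In the iron list of 16 genes these were the 1 that rose and the 1 that fell, beside 6.98% higher and 8.49% lower among all genes. The same held without animal 22130, without animal 20275 and within the last series.

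Of 10 B and plasma cell markers tested 1 was DE and rose, beside 6.98% of all genes, and 0 without animal 22130 and 0 within the last series. The list's median change was -1.07 log2 units in animal 20275 and between 0.24 and 1.20 in the other 8. Some genes of these cells rose from low levels, all but SDC1 named after their values were seen. FCMR, the IgM receptor, was higher in 8 of 9 animals (log2 fold change 1.75, SE 0.41, edgeR adjusted p = 0.0117), as was FCRL5 (log2 fold change 1.49, SE 0.35, edgeR adjusted p = 0.0117). CD22 and SDC1, which encodes syndecan-1, had log2 fold changes of 1.01 and 0.97. IGLL5, which lies at the immunoglobulin lambda locus and may share reads with it, so that its values are uncertain, went from a median of 0.143 CPM to one of 2.07 CPM. The summed CPM of 10 B and plasma cell markers was higher in all 9 animals, at 9.62, 14.2 and 21.4 CPM before treatment and 14.5, 22.4 and 71.4 CPM after it for the lowest, median and highest. ACP5, SLC40A1, HEPH, FCMR, FCRL5 and IGLL5 were DE whichever animal was left out. C1QA, C1QB, C1QC, CFP, CTSK, CTSS, GPNMB, LYZ, VSIG4, AIF1, CD22, SDC1 and USP18 each lost that call when at least 1 of the animals 20261, 20275, 21189, 21866, 22130, 24849 or 26292 was left out, with adjusted p up to 0.148. In the interferon response list USP18, an interferon-induced protease, was the 1 of 24 that was DE, beside 15.5% of all genes, and it fell (log2 fold change -0.68).

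The marker lists of the other cell types that a punch can hold were short, and some had a larger share of DE genes than the 15.5% of all genes. Of 14 NK cell markers 2 rose, and of 16 T cell markers 1 rose and 1 fell. Of 8 monocyte markers 1 rose, and of 8 mast cell markers 1 fell, beside 6.98% higher and 8.49% lower among all genes. Within the last series 0 genes of each of these 4 lists were DE. Of 15 progenitor markers 1 rose and 1 fell, near the 6.98% and 8.49% of all genes. These were DPP4, which rose (log2 fold change 0.81, SE 0.20, edgeR adjusted p = 0.015), and COL15A1, which fell. Of 12 blood endothelial markers 1, and of 16 skeletal muscle markers 0, had an unadjusted p below 0.05, none of either list was DE in edgeR or DESeq2, and 1 of the endothelial markers was DE in limma's voomWithQualityWeights. Of 7 erythroid markers, SLC4A1 and EPB42 fell, beside 8.49% of all genes. The summed CPM of that list was at 327, 2679 and 10570 CPM before treatment and 455, 852 and 7649 CPM after it for the lowest, median and highest. The part of blood cells in the immune genes was not tested. UCHL1, a neuronal ubiquitin hydrolase that other cells also express, fell from 639 ± 240.1 CPM (SD, n = 10) to 311 ± 180.3 CPM (SD, n = 9) (log2 fold change -1.32, SE 0.33, edgeR adjusted p = 0.0158). It was the 1 of 12 neuron markers that was DE, beside 15.5% of all genes, and the list's median log2 fold change was -0.04.

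Melanocyte genes moved apart from each other. Of 9 tested 2 rose and 2 fell, beside 6.98% higher and 8.49% lower among all genes. The counts became 1 and 0 without animal 22130, 2 and 1 without animal 20275 and 1 and 0 within the last series. MLANA, a melanosome protein, rose from 3.93 ± 2.81 CPM (SD, n = 10) to 15.5 ± 13.4 CPM (SD, n = 9) in all 9 animals (log2 fold change 1.79, SE 0.31, edgeR adjusted p = 0.00241), and TYR, tyrosinase, had a log2 fold change of 1.13, while GPR143 and OCA2 fell by 1.96 and 0.98 on the log2 scale. Of the cell type markers named, TUSC5, DPP4, MLANA and UCHL1 were DE whichever animal was left out. SLC4A1, EPB42, TYR, GPR143, OCA2 and DSG1 each lost that call, or were not tested, when at least 1 of the animals 20261, 20275, 20456, 21189, 21866, 22130, 23004, 24849 or 26292 was left out, with adjusted p up to 0.194.

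Skin-gland genes had the most extreme fold changes among DE genes, and 1 library carried them. DCD, the sweat peptide dermcidin, was at 30.0 CPM in the Pre library of animal 23004 and at 0 in the other 9 Pre libraries, and ABCC11, an apocrine gland transporter, was at 33.5 CPM there and at most 0.387 CPM in the others. AZGP1 and PIP, secretory proteins of such glands that did not pass the test, reached 581 and 1239 CPM in the same library, with medians of 0.0542 and 0.223 CPM over the 10. DCD and ABCC11 were called DE, but not in DESeq2, and without animal 23004 they fell below the filter on low counts and were not tested. DSG1, a desmosomal cadherin of skin, was likewise at 16.8 CPM in the Post library of that animal and at most 1.42 CPM in any other. These 5 genes, all but DSG1 named after their values were seen, were high in that animal's biopsies alone.

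Growth control and translation gave smaller changes. CDKN2C and CDKN2B, inhibitors of the G1 kinases, went from 198 ± 27.5 CPM (SD, n = 10) to 105 ± 41.3 CPM (SD, n = 9) and from 46.9 ± 11.8 CPM (SD, n = 10) to 25.4 ± 7.36 CPM (SD, n = 9), and both fell in all 9 animals (log2 fold change -0.96, SE 0.19, edgeR adjusted p = 0.00455, and log2 fold change -0.91, SE 0.20, edgeR adjusted p = 0.00856). E2F1 was the 1 of 30 proliferation genes that passed, beside 15.5% of all genes, and it fell (-0.88). Of 45 translation factors 6 rose and 4 fell, beside 6.98% and 8.49% of all genes, and the counts became 7 and 1 without animal 22130, 4 and 1 without animal 20275 and 0 and 0 within the last series. EIF3E, of the initiation complex, rose (log2 fold change 0.39), as did NPM1, the nucleolar protein of ribosome biogenesis (0.38), and EIF4G1, the scaffold of cap-dependent initiation, fell in all 9 (log2 fold change -0.44).

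Among the most abundant genes that rose in every animal were PRKAR1A, the regulatory subunit that restrains protein kinase A, at 350.2 ± 36.7 CPM (SD, n = 10) to 465 ± 74.8 CPM (SD, n = 9) (log2 fold change 0.42, SE 0.10, edgeR adjusted p = 0.0131), and PABPC1, the poly(A)-binding protein, at 329.8 ± 39.1 CPM (SD, n = 10) to 426 ± 109 CPM (SD, n = 9). RPS20, of the small ribosomal subunit, had a log2 fold change of 0.39, and ribosomal protein genes have processed copies that reads can be shared with. CDKN2C, CDKN2B, E2F1, EIF4G1, EIF3E, NPM1, PRKAR1A and RPS20 were DE whichever animal was left out, and PABPC1 was not without animal 21189 (adjusted p = 0.0545). None of 18 circadian clock genes was DE in edgeR, beside 15.5% of all genes, 4 had an unadjusted p below 0.05, and DESeq2 and voomWithQualityWeights each called 1.

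The largest changes that all 9 animals shared were decreases in genes of low or moderate level. AADACL3 had its lowest, median and highest values at 0.194, 2.67 and 5.70 CPM before treatment and 0.0481, 0.160 and 1.14 CPM after it, and its decrease had the smallest p of all genes (log2 fold change -2.95, SE 0.30, edgeR adjusted p = 4.89e-05). SHROOM2, an actin-binding protein of cell junctions, went from 18.7 ± 7.50 CPM (SD, n = 10) to 5.74 ± 2.57 CPM (SD, n = 9) (log2 fold change -1.81, SE 0.20, edgeR adjusted p = 0.000146), ALPL, tissue-nonspecific alkaline phosphatase, from 16.3 ± 7.93 CPM (SD, n = 10) to 6.52 ± 3.27 CPM (SD, n = 9) (log2 fold change -1.36, SE 0.16, edgeR adjusted p = 0.000229), and the little-known FAM131B from 25.6 ± 12.2 CPM (SD, n = 10) to 7.89 ± 5.10 CPM (SD, n = 9) (log2 fold change -1.74, SE 0.21, edgeR adjusted p = 0.000229).

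PRNP, the prion protein gene, was the most abundant gene to fall by more than 2 log2 units, with its lowest, median and highest values at 735, 1752 and 3393 CPM before treatment and 101, 419.8 and 1519 CPM after it (log2 fold change -2.08, SE 0.42, edgeR adjusted p = 0.00512). SLC26A7, an anion exchanger, fell by 2.27 on the log2 scale, SAMD5 by 2.23, WDR64 by 2.15 and the gap junction gene GJB7 by 2.90, and the sulfotransferase gene SULT1B1 fell by 2.31. VEPH1 fell by 2.34, the phosphate transporter gene SLC17A4 by 3.35, the homeobox gene DUXA by 2.98 and the potassium channel subunit gene KCNE4 by 1.74. GALNT13, a glycosyltransferase gene, and CXorf40A fell by 1.43 and 1.08 with adjusted p below most others (0.000363 and 0.000388). TNMD, the adipose and tendon gene tenomodulin, named after its values were seen, was lower in 8 of 9 animals (log2 fold change -1.91, SE 0.34, edgeR adjusted p = 0.00259).

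Further increases shared by all 9 animals were of DPEP2, a leukotriene-cleaving dipeptidase (1.24), TCEAL7 (1.14), BMF, a pro-apoptotic BCL2 family member (1.04), SH3D21 (0.99) and SERPIND1, heparin cofactor II (1.42), as log2 fold changes. KLF11, a Kruppel-like transcription factor, rose less but evenly, from 65.2 ± 12.3 CPM (SD, n = 10) to 94.4 ± 19.6 CPM (SD, n = 9) (log2 fold change 0.58, SE 0.08, edgeR adjusted p = 0.000826). All 23 genes named from AADACL3 to KLF11 were DE whichever animal was left out.

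In 10 genes every Post library lay below every Pre library, 0.0748% of the genes tested, and in 0 (0.0%) every Post library lay above every Pre library. Named after their values were seen, except that AKR1C1 and G0S2 also came by the rule, they were RBPMS2, AKR1C1, LAMB3, MAPRE3, G0S2, FBXO27, ADK, MTCH2, HLCS and R3HDM1, and all 10 were DE. RBPMS2, an RNA-binding protein, had its lowest, median and highest values at 66.2, 88.8 and 125 CPM before treatment and 11.7, 27.7 and 57.0 CPM after it (log2 fold change -1.65, SE 0.24, edgeR adjusted p = 0.000955). MAPRE3, which binds microtubule ends, went from 40.8 ± 6.98 CPM (SD, n = 10) to 21.3 ± 4.76 CPM (SD, n = 9) (log2 fold change -0.97, SE 0.15, edgeR adjusted p = 0.00103), and ADK, the adenosine kinase, from 114 ± 23.8 CPM (SD, n = 10) to 70.0 ± 10.3 CPM (SD, n = 9) (log2 fold change -0.71, SE 0.13, edgeR adjusted p = 0.00284). MTCH2, a protein of the outer mitochondrial membrane, fell by 0.61, the biotin ligase gene HLCS by 0.54, FBXO27 by 0.80 and R3HDM1 by 0.38 on the log2 scale. HLCS was not DE without animal 20275 (adjusted p = 0.0522).

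The plot of lists sets these counts beside the background. Lists of sterol synthesis, fatty acid synthesis and glycogen had the largest shares of genes that fell, and cholesterol export the largest share that rose, among the 33 lists drawn. The shares are those with all animals.

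**Figure D5:**
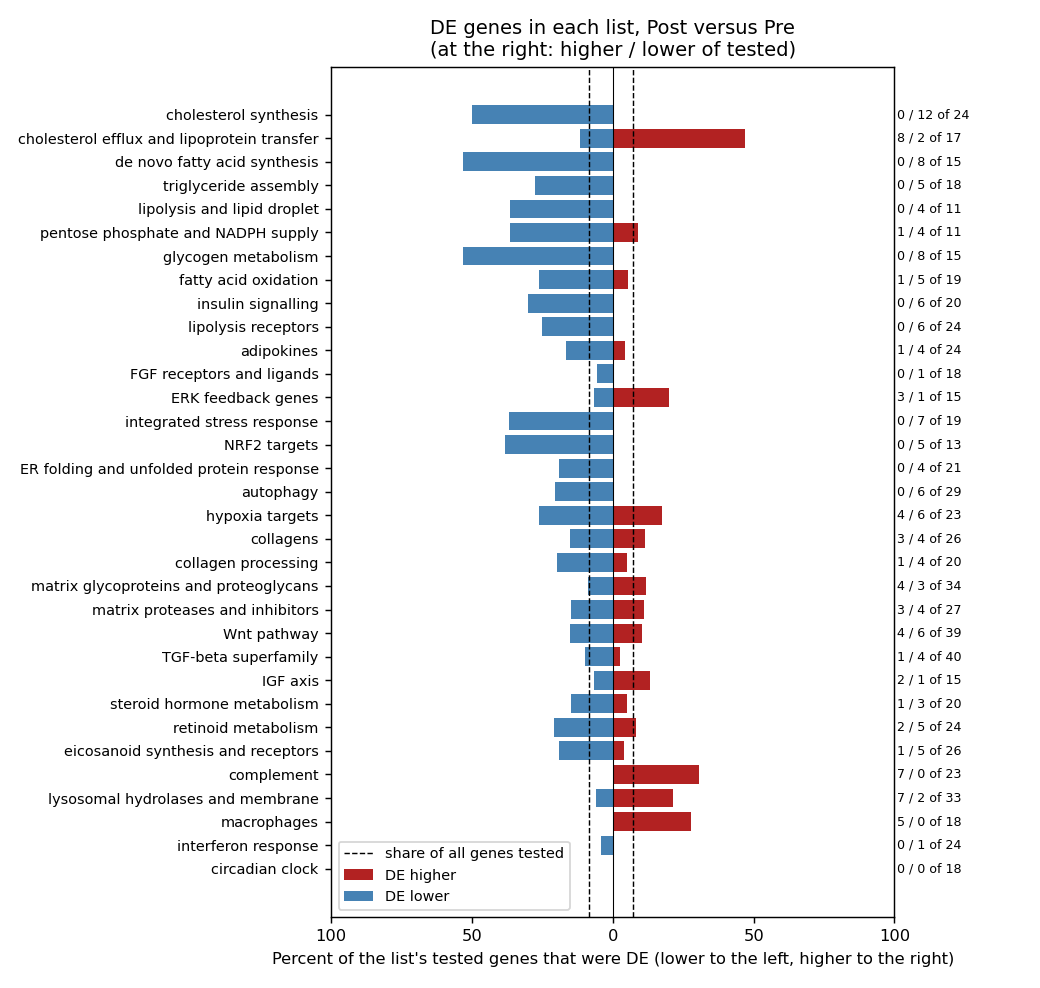
Percent of the tested genes of each of 33 lists that were DE, higher to the right and lower to the left, with dashed lines at the 6.98% and 8.49% of all genes tested. Cholesterol synthesis (12 of 24 lower), de novo fatty acid synthesis and glycogen metabolism (8 of 15 lower each) reach furthest left, and cholesterol efflux (8 of 17 higher) furthest right.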

How the data were processed

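Abdominal subcutaneous AT of 10 rhesus macaques was sequenced as RNA. The authors deposited raw counts per gene. Stranded poly(A) libraries had been aligned by them with STAR to the MacaM rhesus build and genes named by their human homologs; the counting tool and annotation are not given in the sources used here. Of the deposited entries, 70 repeats of a gene were dropped (68 genes with identical counts), which left 16033 genes. Libraries taken 16 weeks after treatment stopped held 15756491 to 20108580 counts. They entered the filter on low counts, the scaling and the estimates of the animal terms and the spread, but not the contrast itself.

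Counts were fitted in edgeR 4.0.16 (R 4.3.3) with TMM scaling, a robust quasi-likelihood fit with animal and time point as terms, and Benjamini-Hochberg adjustment over all 13367 genes tested. CPM values use TMM library sizes, and changes per animal are of log2 CPM with a prior count of 2. Standard errors are the log2 fold change over the square root of F. The test script was tested on simulated data. Counting error was not set apart from the spread between animals. It weighs most in genes of low level, and 1270 of the genes tested averaged under 1 CPM.

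Animals pair the libraries. After the group means were removed, the 2 libraries of an animal had a median correlation across genes of 0.33, ranging from -0.01 in animal 20275 to 0.56, and above 0.1 in 8 of 9 pairs, against -0.03 for 72 pairs of different animals. Each animal is a replicate.

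The members and gene lists were chosen with earlier results of these data known. Genes were named from those with a mean of at least 1 CPM, DE and moving 1 way in every animal (the 12 largest changes, and the 6 most abundant and 6 smallest p, in each direction), from up to 4 DE genes of each list, and as FGF receptors, KLB and FGF21. Genes outside this rule are said to be named after their values were seen. Alternatives were DESeq2 1.42.0, limma 3.58.1 voomWithQualityWeights, other scalings and filters, no replicate block, AT Pre and AT Post libraries alone, the library identifier series, and each animal left out. Tables and plots used Python 3.11.15, numpy 2.4.6, pandas 2.3.3 and matplotlib 3.10.9. No genome was used here, so no positions are given. Some genes are not reported here.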

Additional observations from a re-analysis of the deposited data

Results flagged for a closer look

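For each gene named in the text, the values before and after treatment were screened for a library far from the rest of its group, with a gap to the next library that was large against the group's whole range. Of 366 groups examined 56 had such a library. Some of these genes were named after their values were seen and some lay near 0 CPM, so the count is not set against chance.

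Of these, 8 lay in the Pre library of animal 20275 and 9 in that of animal 22130, which also stood apart over all genes. Animal 22130 before treatment was highest for AKR1C1 at 2474 CPM (next 1723 CPM), DUXA at 7.89 CPM (next 2.71 CPM), FASN at 3183 CPM (next 2118 CPM), GPR143 at 4.57 CPM (next 2.10 CPM), LPL at 19530 CPM (next 13130 CPM), MOGAT1 at 3.20 CPM (next 1.31 CPM), RETSAT at 1910 CPM (next 1420 CPM), SLC26A7 at 323 CPM (next 174 CPM) and SULT1A1 at 89.1 CPM (next 59.1 CPM). Animal 20275 before treatment was highest for ADAMTS5 at 1978 CPM (next 1232 CPM), FAM131B at 53.1 CPM (next 31.5 CPM), HLCS at 90.5 CPM (next 60.1 CPM), LAMA4 at 2496 CPM (next 1702 CPM), R3HDM1 at 83.0 CPM (next 59.5 CPM), SAMD5 at 29.8 CPM (next 16.8 CPM), SLC4A1 at 16.9 CPM (next 7.89 CPM) and SLC7A11 at 7.94 CPM (next 4.37 CPM). Animal 20456 before treatment was highest for FCRL5 at 8.90 CPM (next 4.33 CPM), IGLL5 at 3.10 CPM (next 0.753 CPM), PNPLA3 at 25.0 CPM (next 14.2 CPM), SQLE at 75.1 CPM (next 33.9 CPM) and SULT1B1 at 28.0 CPM (next 14.7 CPM). Animal 23004 before treatment was highest for ABCC11 at 33.5 CPM (next 0.387 CPM), AZGP1 at 581 CPM (next 0.101 CPM), DCD at 30.0 CPM (next 0 CPM) and PIP at 1239 CPM (next 0.995 CPM). Animal 20261 before treatment was highest for ADRA2A at 344 CPM (next 191 CPM) and GJB7 at 9.68 CPM (next 6.06 CPM). Animal 21189 before treatment was highest for BMF at 22 CPM (next 14.1 CPM) and GDF10 at 50.4 CPM (next 28.2 CPM). Animal 21866 before treatment was highest for PTGES at 59.99 CPM (next 42.4 CPM). Animal 26292 before treatment was highest for SERPIND1 at 2.40 CPM (next 1.16 CPM).

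Animal 20261 after treatment was highest for ASNS at 48.8 CPM (next 27.6 CPM), COL4A5 at 20.1 CPM (next 12.5 CPM), DCD at 0.0517 CPM (next 0 CPM), GJB7 at 3.31 CPM (next 1.09 CPM) and PIP at 1.45 CPM (next 0.593 CPM). Animal 20456 after treatment was highest for OCA2 at 8.0 CPM (next 2.24 CPM), PNPLA3 at 22.9 CPM (next 8.90 CPM), SLC17A4 at 1.48 CPM (next 0.414 CPM) and SQLE at 52.2 CPM (next 21.01 CPM). Animal 20275 after treatment was highest for PABPC1 at 702 CPM (next 443 CPM) and SDC1 at 35.8 CPM (next 20.6 CPM), and lowest for PLIN1 at 619 CPM (next 1407 CPM). Animal 23004 after treatment was highest for DKK1 at 14.8 CPM (next 6.07 CPM), DSG1 at 16.8 CPM (next 1.42 CPM) and HPGDS at 13.6 CPM (next 5.81 CPM). Animal 24849 after treatment was highest for FGF21 at 3.43 CPM (next 0.691 CPM), FGFR3 at 4.77 CPM (next 2.33 CPM) and FGFR4 at 0.895 CPM (next 0.362 CPM). Animal 21189 after treatment was highest for MMP11 at 97.4 CPM (next 50.4 CPM) and TYR at 5.10 CPM (next 1.73 CPM). Animal 21866 after treatment was highest for LEPR at 392.5 CPM (next 223 CPM) and MOGAT1 at 0.372 CPM (next 0.0510 CPM). Animal 26292 after treatment was highest for ABCC11 at 0.140 CPM (next 0 CPM) and IGLL5 at 22 CPM (next 8.90 CPM).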

How the results depend on the processing

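The number of DE genes, 2068, was 2607 in DESeq2 (2003 shared), 2059 in voomWithQualityWeights (1700 shared), 2143 with library size as the only scaling and 2056 with DESeq2 size factors. It was 1953 with no filter on low counts, 1952 with at least 10 counts required in every library, 2167 without the fold change limit and 1943 with edgeR's earlier quasi-likelihood method, an alternative chosen after seeing the data. Higher genes were 45.1% of the calls, and 52.8% with library size alone. Without the replicate block, so that the pairing by animal was not used, 1420 genes were DE, 632 higher and 788 lower. With only the AT Pre and AT Post libraries 1497 were DE, of which 551 were higher. Within the last series the counts were 415 in all, 85 higher and 330 lower. With 1 animal or library left out, the totals ran from 805 to 2214, those higher from 295 to 1026 and those lower from 510 to 1208. Fewer animals were tested there, and beyond that the cause was not tested.

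Of 176 DE genes named, 106 were DE whichever animal was left out, 110 without animal 22130, 131 without animal 20275, 80 within the last series, 129 without the block, 172 in DESeq2 and 163 in voomWithQualityWeights. No DE gene named changed direction. Among genes that were not DE, the log2 fold change of FGFR3 turned to 0.0204 with library size alone, 0.0370 without the block and 0.00825 with the series as a covariate. With 1 animal left out FGFR3 ran from -0.271 to 0.0859, and it was 0.029 without the Pre library of animal 20275. AZGP1 ran from -6.26 to 2.20 and PIP from -7.24 to 1.24, both highest without animal 23004, and PIP was 0.45 within the last series.

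Genes near 0.5 CPM rest on few reads, so their fold changes are imprecise. With 9 pairs and 1 biopsy per animal and time point, biopsy and animal cannot be told apart.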
